A study of Rattus norvegicus with 6 samples.

Results

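The astrocyte genes described here are 6 transcripts of the spinal cord: Gfap, S100b, Aqp4 and Gja1, which mark astrocyte identity and contacts, and Slc1a2 and Slc1a3, which encode the glutamate transporters GLT-1 and GLAST. They were chosen by Ensembl rat gene ID, with earlier results of these data known. All 6 were found among the 22526 IDs of the deposited table and passed the filter on low values that left 19515 genes to test. Their names come from the list of IDs that defined the set, because the table holds IDs only. RNA came from the cord of adult female Sprague-Dawley rats taken 2 weeks after spinal cord injury. In the A-DON group (3 rats), the lesion had received a scaffold of decellularized optic nerve, that is, optic nerve freed of its own cells, that carried the aptamer Apt19S, a short nucleic acid folded to bind a target. In the DON group (3 rats), the scaffold had no aptamer. Every rat was thus injured and implanted, no uninjured cord was analysed here, and DON is the only comparison for A-DON.

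Astrocytes support neurons by clearing glutamate and potassium from the extracellular space, by moving water at their endfeet around blood vessels, and by sharing ions and metabolites through gap junctions. After spinal cord injury they become reactive: they enlarge, make more intermediate filament protein and form a border around the lesion. Glutamate uptake by GLT-1 and GLAST limits excitotoxic damage to neurons, and both transporters are members of the same sodium-dependent carrier family.

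Libraries held 24961512 to 28911941 reads in A-DON and 29143139 to 31189687 in DON, worked out from the deposited values. Expression is given as normalized counts, that is, reads per gene divided by the size factor of the library, with no correction for gene length. Levels can therefore be compared between libraries for a gene but not between genes. The libraries did not form tight groups over all tested genes. On the first principal component (70.5% of the variance) A-DON replicate 2 scored 15.6, against 144 and 128 in A-DON replicates 1 and 3 and -113 to -71.0 in DON. DON replicate 1 stood apart on the second component, at 73.3, against -50.7 and -33.0 in DON replicates 2 and 3. Results that rest on either library are given with and without it. The 6 astrocyte transcripts were read in every library. Other markers of spinal cord and of other cell types could not be looked up by ID, and the part of other cells in the results was not tested.

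The promoters of the 4 genes that passed the test between A-DON and DON are shown because 3 of them fell together in A-DON and the other rose. Each runs from 250 bases before the annotated transcription start to 50 bases after it, on the gene's own strand, in RefSeq sequence of the build GRCr8. Capitals mark a match to TGANTCA, the letters bound by AP-1 factors. Gfap lies at chr10:88361612-88361911 (minus strand), S100b at chr20:12381032-12381331 (minus strand), Gja1 at chr20:36302314-36302613 (plus strand) and Slc1a3, in the window of the first start listed, at chr2:59557759-59558058 (minus strand).
Gfap: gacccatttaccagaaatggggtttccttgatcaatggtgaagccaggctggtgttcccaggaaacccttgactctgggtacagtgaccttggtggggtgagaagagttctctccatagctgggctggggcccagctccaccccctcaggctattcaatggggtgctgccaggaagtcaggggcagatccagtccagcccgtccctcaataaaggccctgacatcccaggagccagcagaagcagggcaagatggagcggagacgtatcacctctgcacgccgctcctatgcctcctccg
S100b: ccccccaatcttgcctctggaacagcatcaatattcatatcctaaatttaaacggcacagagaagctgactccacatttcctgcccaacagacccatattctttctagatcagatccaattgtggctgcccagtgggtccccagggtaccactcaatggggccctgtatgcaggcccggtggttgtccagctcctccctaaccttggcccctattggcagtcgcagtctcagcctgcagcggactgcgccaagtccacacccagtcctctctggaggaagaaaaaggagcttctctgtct
Gja1: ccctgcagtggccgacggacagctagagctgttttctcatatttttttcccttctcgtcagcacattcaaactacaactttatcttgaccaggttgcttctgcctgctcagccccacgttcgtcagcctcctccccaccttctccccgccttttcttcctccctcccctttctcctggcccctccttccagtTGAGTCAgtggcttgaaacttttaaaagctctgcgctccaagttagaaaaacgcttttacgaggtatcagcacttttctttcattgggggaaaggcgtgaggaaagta
Slc1a3: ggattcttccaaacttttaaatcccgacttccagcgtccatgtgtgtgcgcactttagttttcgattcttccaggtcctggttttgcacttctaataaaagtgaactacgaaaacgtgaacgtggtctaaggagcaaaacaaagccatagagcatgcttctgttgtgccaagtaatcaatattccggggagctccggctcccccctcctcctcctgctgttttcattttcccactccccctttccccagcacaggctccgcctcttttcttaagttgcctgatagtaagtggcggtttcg

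The motifs were searched on both strands in the 10 promoter windows that RefSeq lists for the 6 genes. The windows of Slc1a3 overlap for most of their length, so the 10 are not all separate sequences. TGANTCA was found in 1 window, that of Gja1, at 58 to 52 bases before the start, and is held by 7.33% of the 33469 windows of all genes. TTCNNNGAA, the element bound by STAT factors, was found in 0 of the 10 windows and in 8.87% of all windows. The full palindromic site of NFI factors was found in 0 of the 10 and in 0.0418% of all. No matches overlapped, and a match is only a string of letters in a short window. The promoters differed in CG dinucleotides, with 6 in the Gfap window, 5 in that of S100b, 10 in that of Gja1 and 12 in that of Slc1a3, against a median of 7 over all windows.

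The comparison of A-DON with DON asks what the aptamer on the scaffold changed in the implanted cord. Of the 6 astrocyte genes, 3 fell and 1 rose in A-DON (limma, Benjamini-Hochberg adjusted p under 0.05 over all tested genes). Gfap, S100b and Gja1 fell, while the glutamate transporter Slc1a3 rose. Aqp4 and Slc1a2 did not pass. Across all tested genes 35.5% passed in either direction, 16.6% as lower and 18.9% as higher in A-DON. Among the 5892 genes with a mean level at or above the lowest of the 6, 47.3% passed, 1363 as lower and 1421 as higher. Scaling to total counts gave 4360 higher and 2422 lower genes, where the deposited scaling gave 3698 and 3232, and left the same 4 astrocyte genes past the threshold. Quantile normalization left 3 of them, without Gfap, and a block for the replicate number left 0. Leaving out A-DON replicate 1, A-DON replicate 3 or DON replicate 3 also left 0, and leaving out DON replicate 2 left only Slc1a3. At the deposited scaling the groups did not overlap in the 4 genes that passed, with all A-DON libraries below all DON libraries in 3 and above them in 1. Such separation was found in 27.9% of tested genes below and 28.0% above. The median log2 fold change was -0.82 over the 6 genes and -0.02 over all tested genes. The 6 did not move as a set: their changes ran from -2.38 for Gfap to 1.21 for Slc1a2, which did not pass. In bulk tissue, changes in the number of astrocytes, in a transcript per astrocyte and in other cells cannot be told apart.

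**Figure D1:**
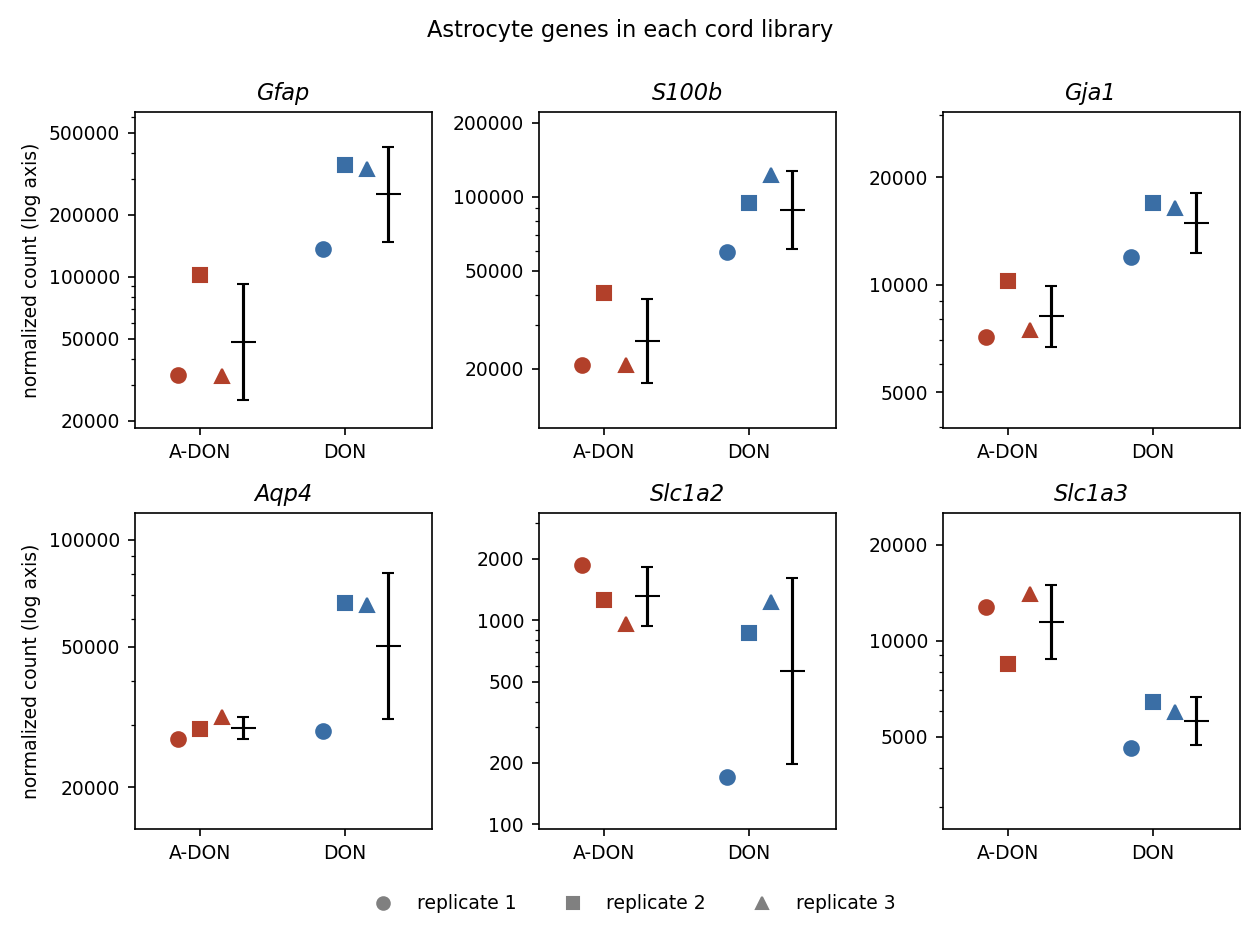
Normalized counts of the 6 astrocyte genes on a log axis, with each rat as a point (circle, square and triangle for replicates 1, 2 and 3), A-DON in red on the left and DON in blue on the right of each panel. Bars show the mean and SD of the log2 values (n = 3). All A-DON points lie below all DON points for Gfap, S100b and Gja1 and above them for Slc1a3, and the groups overlap for Aqp4 and Slc1a2.

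Gfap (ENSRNOG00000002919) encodes glial fibrillary acidic protein, an intermediate filament protein of astrocytes. It had 33534, 102043 and 33182 normalized counts in A-DON replicates 1 to 3, against 136449, 350361 and 332246 in DON replicates 1 to 3. Every A-DON library was below every DON library. A-DON replicate 2 was 3.06 times the mean of the other A-DON libraries and came near the lowest DON library, replicate 1. Gfap averaged 56253 ± 39656 normalized counts in A-DON and 273019 ± 118619 in DON (SD, n = 3 each). Gfap fell by 2.38 on the log2 scale (standard error 0.58, limma adjusted p = 0.028), a 5.19-fold lower level in A-DON. With quantile normalization the change was -1.86 and did not pass (limma adjusted p = 0.067). Only 5.06% of tested genes had a more negative log2 fold change. As a share of the library, Gfap took 0.206 ± 0.150% of reads in A-DON and 0.932 ± 0.411% in DON (SD, n = 3 each).

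S100b (ENSRNOG00000001295) encodes a calcium-binding protein that astrocytes contain and release. Its level was 20750, 40609 and 20626 normalized counts in A-DON replicates 1 to 3, against 59574, 94482 and 122786 in DON replicates 1 to 3. As for Gfap, A-DON replicate 2 was the highest A-DON library, DON replicate 1 was the lowest DON library, and the groups did not overlap. The means were 27329 ± 11502 in A-DON and 92281 ± 31664 in DON (SD, n = 3 each). S100b fell by 1.77 on the log2 scale, with a standard error of 0.38 (limma adjusted p = 0.021), or 3.41-fold.

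Gja1 (ENSRNOG00000000805) encodes connexin 43, the main gap junction protein of astrocytes. A-DON replicates 1 to 3 had 7136, 10230 and 7456 normalized counts, against 11953, 16932 and 16415 in DON replicates 1 to 3. The order of the libraries was again high in A-DON replicate 2 and low in DON replicate 1 within their groups, with no overlap between groups. Its mean was 8274 ± 1701 in A-DON and 15100 ± 2738 in DON (SD, n = 3 each). The log2 fold change of -0.87 had a standard error of 0.21 (limma adjusted p = 0.027), so the level was 1.83-fold lower in A-DON.

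Aqp4 (ENSRNOG00000016043) encodes aquaporin-4, the water channel of astrocyte endfeet. The A-DON libraries were close together, at 27433, 29325 and 31559 normalized counts, against 28924, 66195 and 65425 in DON replicates 1 to 3. DON replicate 1 lay inside the A-DON range, and DON replicates 2 and 3 averaged 2.28 times its level. Within A-DON the SD of the log2 values was 0.10, and 13.8% of tested genes had a smaller one. For Aqp4 the log2 fold change of -0.77 (standard error 0.34) had a 95% interval from -1.61 to 0.07 (limma adjusted p = 0.12). The result turned on DON replicate 1: without that library the log2 fold change was -1.16 and passed (limma adjusted p = 0.022). Without any other library the limma adjusted p was 0.175 to 0.298.

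Of the glutamate transporters, Slc1a3 rose and Slc1a2 did not pass. Slc1a3 (ENSRNOG00000016163), the gene of GLAST, had 12781, 8463 and 13998 normalized counts in A-DON replicates 1 to 3, against 4612, 6410 and 5988 in DON replicates 1 to 3. All A-DON libraries were above all DON libraries, with A-DON replicate 2 the nearest to DON. The means were 11747 ± 2909 in A-DON and 5670 ± 941 in DON (SD, n = 3 each). Slc1a3 rose by 1.03 on the log2 scale with a standard error of 0.24 (limma adjusted p = 0.024), a 2.04-fold higher level in A-DON. It did not pass without DON replicate 1 (log2 fold change 0.89, limma adjusted p = 0.061), DON replicate 3 (0.069), A-DON replicate 1 (0.094) or A-DON replicate 3 (0.092).

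Slc1a2 (ENSRNOG00000005479), the gene of GLT-1, the main glutamate transporter of mature astrocytes, was the least precisely measured of the 6. A-DON replicates 1 to 3 had 1865, 1256 and 961 normalized counts, against 171, 864 and 1230 in DON replicates 1 to 3. The groups overlapped, since DON replicate 3 was above A-DON replicate 3 and just below A-DON replicate 2. DON replicate 1 stood far below the rest, with 179 reads (exact 95% Poisson interval 154 to 207, counting error only). DON replicates 2 and 3 averaged 6.13 times its normalized count. The SD of the log2 values in DON was 1.52, larger than in 96.1% of tested genes. Its log2 fold change of 1.21 (standard error 0.75) had a 95% interval from -0.63 to 3.05 (limma adjusted p = 0.24). Without DON replicate 1 it was 0.35 (limma adjusted p = 0.45), so that library carried most of the difference in means.

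**Figure D2:**
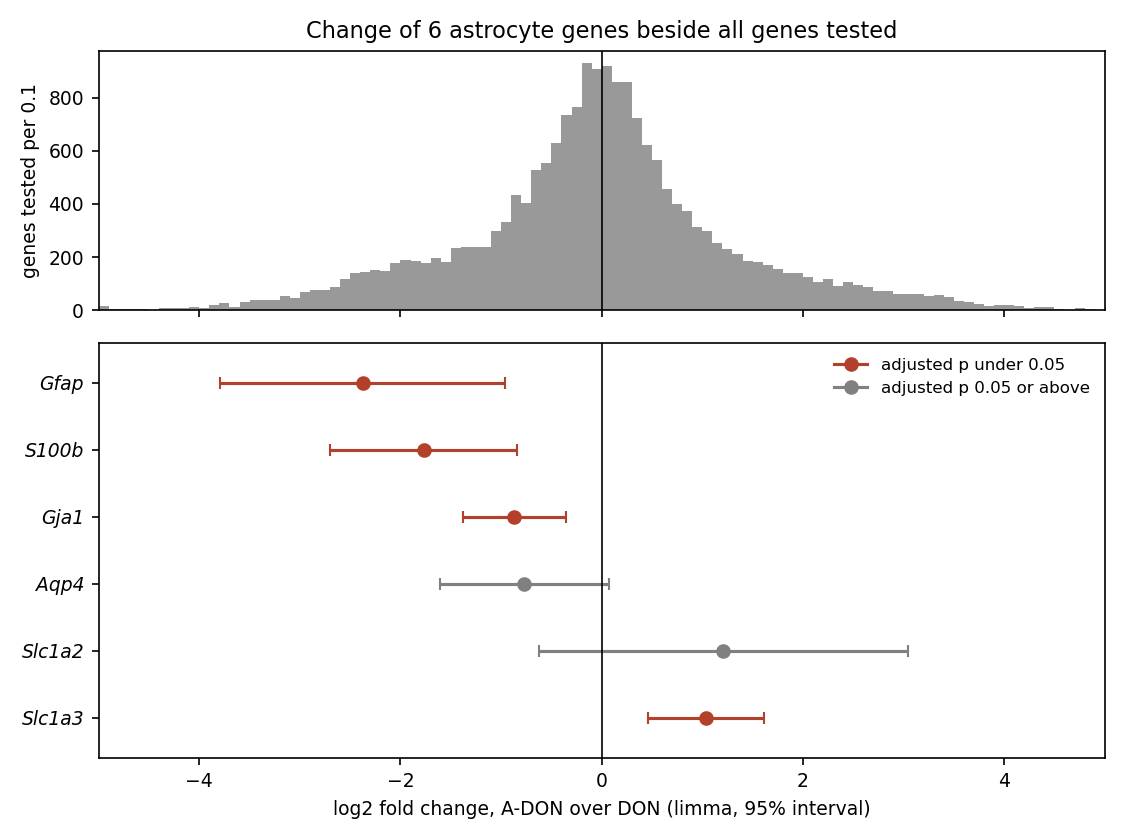
Log2 fold changes of the 6 astrocyte genes, A-DON over DON, as points with 95% intervals (lower panel), below a histogram of the log2 fold changes of all 19515 tested genes in steps of 0.1, with values beyond 5 in size placed in the end bins. Gfap at -2.38 lies in the lower tail, Slc1a3 at 1.03 is the only red point right of 0, and the intervals of Aqp4 and Slc1a2 cross 0.

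The libraries that stood apart over all genes did so unevenly among the astrocyte genes. On a log2 scale where 0 is the DON mean and 1 the mean of A-DON replicates 1 and 3, A-DON replicate 2 was placed at 0.45 by Gfap, 0.54 by S100b, 0.53 by Gja1 and 0.47 by Slc1a3. On this log2 scale it was thus near midway between the groups in the 4 genes that passed, for the rising gene as for the falling ones. This was not particular to them. Over all tested genes its score on the first principal component was 15.6, also between those of the other A-DON libraries (128 and 144) and DON (-113 to -71.0). Aqp4 placed A-DON replicate 2 at 1.01 and Slc1a2 placed it at 0.93, beside the other A-DON libraries. On the linear scale the positions were 0.71 for Gfap, 0.72 for S100b, 0.62 for Gja1, 0.36 for Slc1a3, 1.01 for Aqp4 and 0.76 for Slc1a2. DON replicate 1 had the lowest DON level of all 6 genes, from 0.163 times the mean of DON replicates 2 and 3 for Slc1a2 to 0.744 times for Slc1a3. What distinguishes these rats was not tested.

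The number of genes past the threshold moved with single libraries, and the cause was not tested. All of Gfap, S100b, Gja1 and Slc1a3 kept their direction when any 1 library was left out. None of the 6 genes passed without A-DON replicate 1, A-DON replicate 3 or DON replicate 3, and only Slc1a3 passed without DON replicate 2 (limma). In each of these 4 fits, 4 of the genes had an unadjusted p under 0.05, as did 35.0% to 44.8% of all tested genes. Without A-DON replicate 2, the same 4 genes passed with all log2 fold changes farther from 0: -2.91 for Gfap, -2.10 for S100b, -1.03 for Gja1 and 1.25 for Slc1a3. Without DON replicate 1, Gfap, S100b, Gja1 and Aqp4 passed and Slc1a3 did not. Over all tested genes, the fits without a library called 12 to 9286 genes, with 12 in that without A-DON replicate 3, 35 in that without A-DON replicate 1, 9286 in that without A-DON replicate 2, and 3890, 3930 and 1552 in those without DON replicates 1, 2 and 3.

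**Figure D3:**
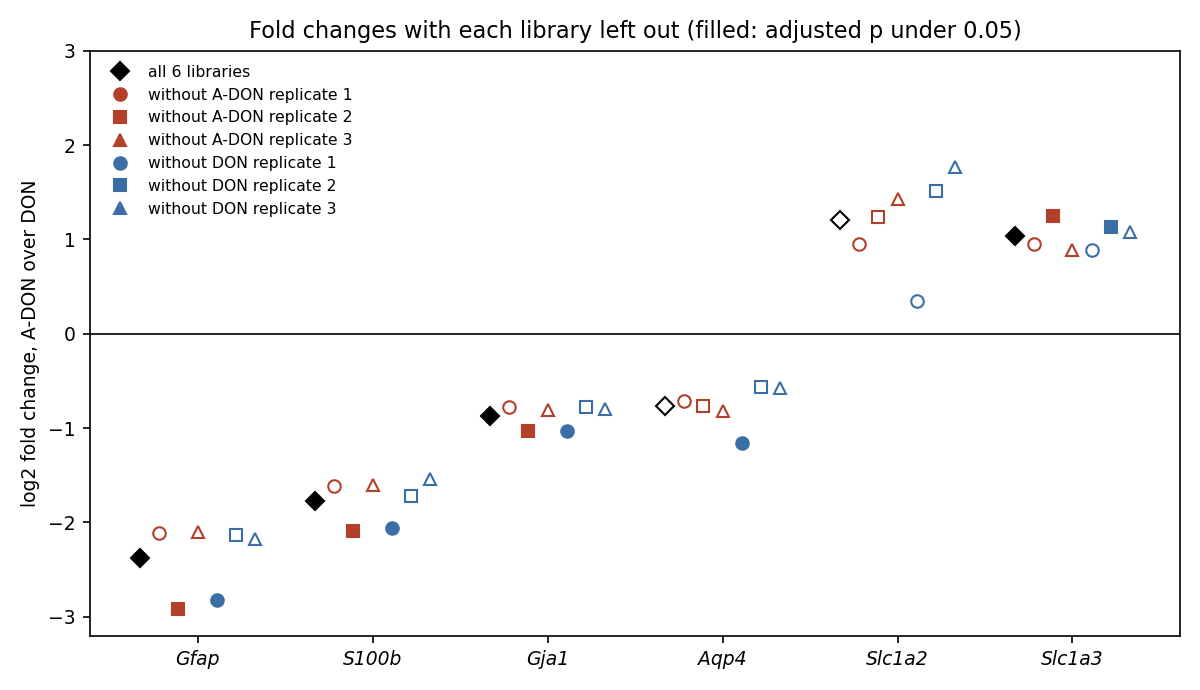
Log2 fold change of each astrocyte gene, A-DON over DON, with all 6 libraries (black diamonds) and with 1 library left out (red for A-DON, blue for DON). Filled symbols have an adjusted p under 0.05. No symbol crosses 0, the largest falls of Gfap (-2.91 and -2.82) come without A-DON replicate 2 and DON replicate 1, and the Slc1a2 symbol at 0.35 is the fit without DON replicate 1.

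To ask whether the genes changed by different amounts, the log2 ratio of each pair of genes was taken within each rat, where gene length and the size factor of the library cancel from the difference between groups. Of the 15 pairs, 12 had ratios that did not overlap between A-DON and DON. In the pairs of Slc1a3 with Gfap, S100b and Gja1, this was fixed in advance by the single genes. Slc1a3 was higher, and Gfap, S100b and Gja1 were lower, in every A-DON rat than in every DON rat. When each of the 6 genes was set against every other tested gene in the same way, 55.9% of ratios did not overlap, from 33.1% for Slc1a2 to 70.8% for Slc1a3, so separation of a ratio was common. With quantile normalization 10 of the 15 did not overlap, because Gfap to Aqp4 and Gfap to Gja1 then overlapped. Exact permutation (two-sided) gave p = 0.1 for each of the 12 pairs separate at the deposited scaling, which is as low as groups of 3 can go, and 0.125 after Benjamini-Hochberg over the 15 pairs. No pair can therefore pass the threshold of 0.05, and the pairs share genes.

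At the deposited scaling, Gfap relative to the water channel and the connexin was lower in every A-DON rat than in every DON rat. The ratio of Gfap to Aqp4 was 1.22, 3.48 and 1.05 in A-DON replicates 1 to 3, against 4.72, 5.29 and 5.08 in DON replicates 1 to 3. It was nearly constant over the DON rats, DON replicate 1 included, although the levels of both genes in that library were well below those of the other DON libraries. The change of this ratio was -1.61 on the log2 scale (exact two-sided permutation p = 0.1), and -1.23 with overlap between groups after quantile normalization (exact p = 0.2). Gfap relative to Gja1 differed by -1.51 with no overlap, and by -0.98 with overlap after quantile normalization (exact p = 0.2). S100b relative to Gja1 differed by -0.90, with no overlap under either scaling. The ratio of Gfap to S100b, with a change of -0.60, overlapped between groups with all 6 libraries (exact two-sided permutation p = 0.2). That overlap rested on A-DON replicate 2 and DON replicate 1. Without A-DON replicate 2 the change was -0.82, and without DON replicate 1 it was -0.76, with no overlap in either case. With so few rats the test cannot decide whether Gfap changed more than S100b, nor can it decide this for the pairs that did not overlap. Aqp4 and Gja1 differed least, with a change of 0.10 in their ratio (exact two-sided permutation p = 0.7).

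The widest divergence was between the filament gene and the transporters. Gfap to Slc1a3 was 2.62, 12.1 and 2.37 in A-DON replicates 1 to 3, against 29.6, 54.7 and 55.5 in DON replicates 1 to 3, a change of -3.41 on the log2 scale. Gfap to Slc1a2 differed by -3.58, again with no overlap. The ratio of Slc1a3 to Gja1 was the most uniform in DON, at 0.386, 0.379 and 0.365 in replicates 1 to 3, and was 1.79, 0.827 and 1.88 in A-DON replicates 1 to 3. Its change was 1.90 on the log2 scale (exact two-sided permutation p = 0.1). The lack of overlap in this ratio, and in that of Gfap to Slc1a3, follows from the levels of the single genes. Between the transporters, the ratio of Slc1a2 to Slc1a3 overlapped between groups, with a change of 0.18 (exact two-sided permutation p = 0.8).

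**Figure D4:**
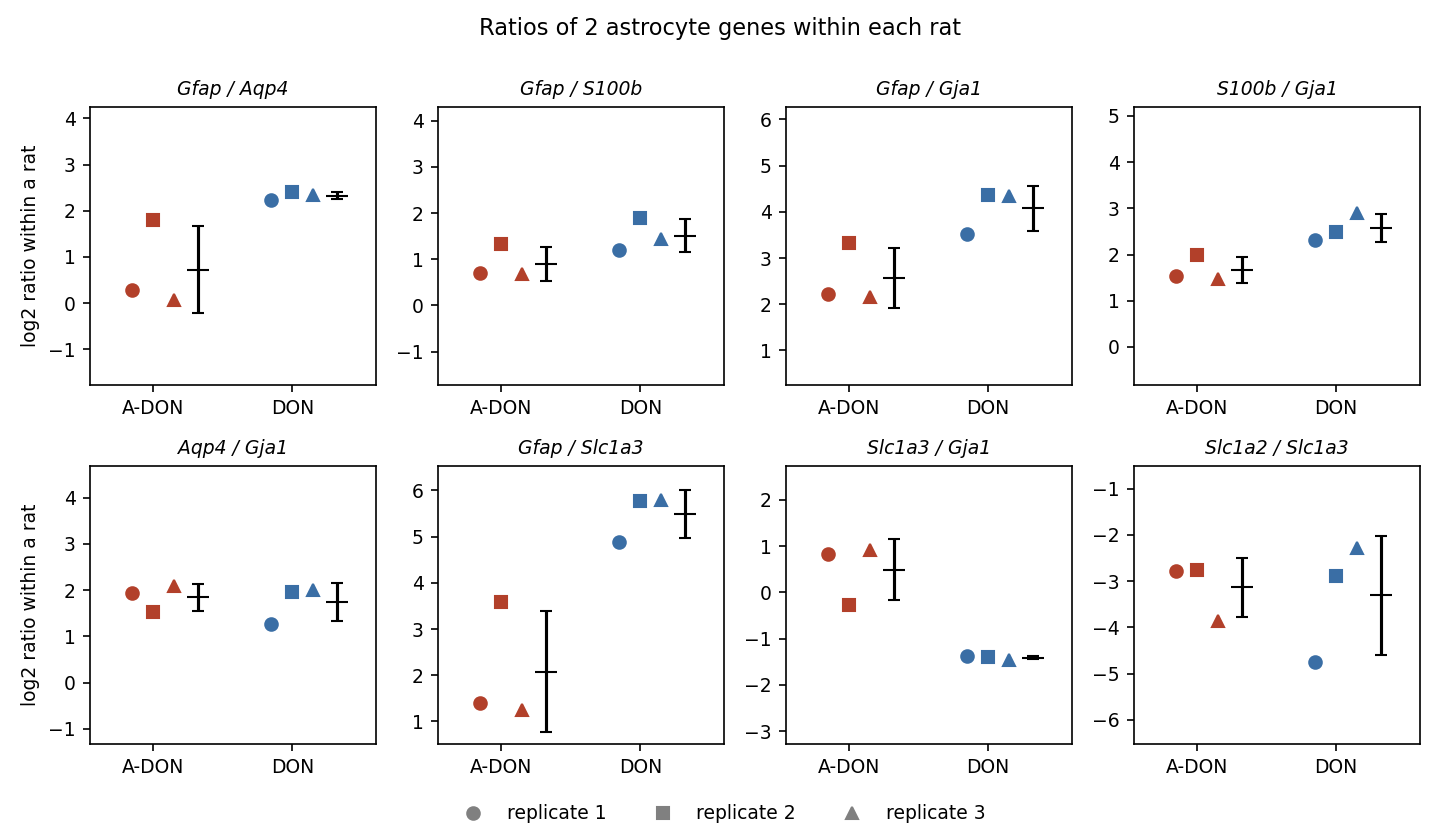
Log2 ratio of 2 astrocyte genes within each rat for 8 of the 15 pairs, with A-DON in red on the left and DON in blue on the right, replicates as circle, square and triangle, and bars for mean and SD (n = 3). Every panel spans the same number of log2 units. Ratios of Gfap to Aqp4, to Gja1 and to Slc1a3 are lower in all A-DON rats, that of Slc1a3 to Gja1 is higher in all A-DON rats, and the ratios Gfap to S100b, Aqp4 to Gja1 and Slc1a2 to Slc1a3 overlap.

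Likeness of pattern was measured as the root mean square difference between log2 profiles over the 6 libraries, each centred on its own mean. Aqp4 and Gja1 were the most alike pair, at 0.29, with 1.13% of tested genes as near to Aqp4 and 7.72% as near to Gja1. Gfap was nearest to S100b, at 0.42, and 0.80% of tested genes lay as near to Gfap and 2.90% as near to S100b. Slc1a2 and Slc1a3 were nearest to each other, at 0.83, a distance within which lay 7.60% of tested genes for Slc1a2 and 57.5% for Slc1a3. Gfap and Slc1a2 were the farthest apart, at 1.95. No gene outside the set could be named, because the reference pairs none of the table's IDs with a symbol.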

How the data were processed

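Spinal cord RNA of 6 rats had been made into stranded mRNA libraries and sequenced on an Illumina NovaSeq, per the labels' protocols. Tools named in the submitters' processing notes are STAR 2.5.3a, StringTie 1.3.1c and FastQC 0.11.2, on the build rn6, with no role for each. How reads were counted, and on which annotation and strand, is not given in the sources used here. A table of log2 values was deposited. Undoing the log2 and subtracting 1 gave whole multiples of a library's step for 100% of values up to 1000 reads (tolerance 0.05 reads), and the inverse steps equal median-of-ratios size factors. The values are thus read as log2(reads / size factor + 1).

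The groups were tested with limma 3.58.1 (R 4.3.3, intensity trend, robust moderation, group alone) on the deposited log2 values, for genes that reached a normalized count of 1 in 3 or more libraries. P-values were adjusted by Benjamini-Hochberg over all tested genes, with a threshold of 0.05. The 1 added before the log2 makes fold changes of low genes too small. Reads carried no stated molecular identifiers, so intervals cover counting error only. Rats are separate animals in the series' design. The sample titles number the rats 1 to 3 in both groups, so each number occurs in A-DON and in DON. Ratios within rats were tested by exact permutation (Python 3.11.15, scipy 1.17.1). Promoters came from RefSeq tables of GRCr8, matched by symbol for 6 of 6 genes. None of the 22526 IDs is listed in the reference gene table, so marker and pathway lists given by symbol were not used, and all 6 genes are named without further choice. The main fit used no pairing. Between rats that share a replicate number, deviations from the group mean correlated at r = -0.17, -0.24 and -0.08 for numbers 1 to 3. With 3 rats per group, these values cannot decide whether rats that share a number also shared a batch. The genes and lists were chosen with earlier results of these data known.

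Alternatives were other filters, scalings, a pseudocount of 0.1, plain limma, voom with TMM factors on the whole reads, a block for the replicate number, and each library left out in turn.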

Additional observations from a re-analysis of the deposited data

How the results depend on the processing

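All 6 genes kept the sign of their log2 fold change under all 14 alternatives. Under 7 of the 8 that keep every library (all but the replicate block), the same 4 genes passed, except that Gfap did not with quantile normalization (-1.86, limma adjusted p = 0.067). Over all genes tested, 5879 to 7552 passed there. Total-count scaling moved the split of calls to 4360 higher and 2422 lower (3698 and 3232 as deposited) and the median of all genes to 0.07. With a replicate block, 0 genes passed of all tested (7601 at an unadjusted p under 0.05) and 0 of the 6 (4 at an unadjusted p under 0.05), with log2 fold changes unchanged at -2.38 (Gfap), -1.77 (S100b), 1.03 (Slc1a3) and -0.87 (Gja1) and limma adjusted p of 0.066, 0.068, 0.081 and 0.068. Whether rats that share a number also shared a batch was not tested.

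Without 1 library, 12 to 9286 genes passed overall and 0 to 4 of the 6. Log2 fold changes ran from -2.91 to -2.10 (Gfap), -2.10 to -1.53 (S100b), -1.03 to -0.77 (Gja1), -1.16 to -0.57 (Aqp4), 0.35 to 1.77 (Slc1a2) and 0.89 to 1.25 (Slc1a3); such fits have fewer rats. Among the ratios, Slc1a2 to Slc1a3 (up to 0.69) changed sign without A-DON replicate 1 (-0.00019), A-DON replicate 2 (-0.013) or DON replicate 1 (-0.54), and Aqp4 to Gja1 (up to 0.27) without A-DON replicate 3 (-0.015) or DON replicate 1 (-0.13). The other 85 values without a library and all 30 under quantile normalization or the pseudocount of 0.1 kept their sign, but 10 and not 12 of 15 ratios stayed separate with quantile normalization. Without A-DON replicate 2 or without DON replicate 1, 13 of 15 were separate, Gfap to S100b among them. The fewest reads for any of the 6 genes in a library were 179, and counting error there was far below the spread between rats.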
